A study of Homo sapiens with 7 samples.

Results

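MARCKS and MARCKSL1 are the 2 genes of the MARCKS family, and they were taken by symbol from the 13872 genes of the deposited table. The pair was selected on its levels in ALDH-high and ALDH-low clones, which were already known, so those levels are described here without a test. The study measured gene expression in UM-UC-3, a cell line established from a human urothelial carcinoma of the bladder. The groups were 3 ALDH-high clones (H1, H6 and H10), 3 ALDH-low clones (L1, L3 and L8) and 1 wild-type UM-UC-3 culture. Clones were isolated by their aldehyde dehydrogenase (ALDH) activity in the ALDEFLUOR assay, in which active cells turn fluorescent. The submitters regard ALDH-high clones as cancer stem-like cells and ALDH-low clones as their non-stem-like counterpart. The stated culture medium, DMEM with 10% FBS, was given in the notes for the ALDH-high clones. Every clone descends from 1 cell line, n = 3 counts clones, and the wild type had no replicate.

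MARCKS, the myristoylated alanine-rich C-kinase substrate, is a rod-like protein that lines the inner face of the plasma membrane. Its N-terminal myristoyl chain and a basic effector domain hold it there, and the effector domain masks the lipid PIP2, cross-links actin filaments and binds calmodulin. Protein kinase C (PKC) phosphorylates serines of that domain and calcium-loaded calmodulin occupies it, and either event releases the protein into the cytosol and frees PIP2. MARCKSL1, also called MARCKS-like protein, is a shorter paralog with the same myristoyl anchor and effector domain. Both are known for roles in cell spreading, migration and secretion. RNA levels carry no information on phosphorylation or on where the proteins sit.

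ALDH1A1, the aldehyde dehydrogenase most often read by the ALDEFLUOR assay, was at 33.37 to 96.32 CPM (read counts scaled to library size) in ALDH-high clones, 0 to 0.08 CPM in ALDH-low clones and 37.85 CPM in wild type. GRIK2, the glutamate receptor gene named in the series title, was at 11.04 to 24.56 CPM, 0 to 0.04 CPM and 15.79 CPM in the same groups. Of 14 epithelial and urothelial markers the table used here lists KRT8, KRT18 and KRT7, and their summed level was 499 to 739 CPM in ALDH-high clones, 235 to 519 CPM in ALDH-low clones and 751 CPM in wild type. KRT18 and KRT8 make up most of that sum and were higher on average in ALDH-high clones, with overlapping groups. KRT7 lay the other way, at 1.48 to 2.83 CPM in ALDH-high clones, 3.22 to 6.68 CPM in ALDH-low clones and 7.19 CPM in wild type. The other epithelial markers, uroplakins and GATA3 among them, have no row in the table used here, and the same holds for all 14 markers of blood, endothelial and fibroblast cells. The part of the keratin differences in the results below was not tested. In each library 1 read was worth 0.0393 to 0.0410 CPM.

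The annotation (GENCODE release 29) gives each gene 1 transcript of 2 exons, MARCKS (ENSG00000155130 in the files) on the plus strand of chromosome 6 and MARCKSL1 (ENSG00000175130) on the minus strand of chromosome 1. No annotated gene overlaps either of them, and neither shares its 7 values with another listed gene. The annotation also holds 2 processed pseudogenes of MARCKSL1, on chromosomes 6 and 10. Neither is in the table, and the sources used here do not say how reads that match the parent and its copies were counted. The promoters of the pair are shown because the genes encode alike proteins while their levels followed different patterns over the 7 libraries. RefSeq sequences of GRCh38.p14 run from 250 bases before to 50 bases after the start of each gene, 5′ to 3′ on the gene's strand, with capitals for GC boxes (GGGCGG), for CCAAT boxes and for runs of TATATA on either strand. They are chr6:113857095-113857394 (plus strand) for MARCKS and chr1:32336184-32336483 (minus strand) for MARCKSL1.
MARCKS: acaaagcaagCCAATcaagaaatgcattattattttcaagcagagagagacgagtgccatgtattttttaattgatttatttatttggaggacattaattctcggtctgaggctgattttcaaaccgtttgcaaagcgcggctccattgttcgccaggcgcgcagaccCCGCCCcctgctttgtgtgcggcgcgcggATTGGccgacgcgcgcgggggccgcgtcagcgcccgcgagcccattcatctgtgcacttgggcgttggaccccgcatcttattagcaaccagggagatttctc
MARCKSL1: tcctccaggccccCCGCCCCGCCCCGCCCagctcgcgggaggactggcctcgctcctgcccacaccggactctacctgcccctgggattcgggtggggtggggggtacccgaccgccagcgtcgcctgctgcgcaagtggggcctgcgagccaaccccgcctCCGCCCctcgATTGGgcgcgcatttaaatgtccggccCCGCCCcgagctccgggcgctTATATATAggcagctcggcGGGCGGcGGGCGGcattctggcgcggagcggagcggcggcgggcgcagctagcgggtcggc
The MARCKSL1 window was richer in G and C, at 75.0% with 38 CpG dinucleotides, against 53.0% with 25 CpG in MARCKS. The medians over 35116 RefSeq promoters of this length were 58.7% and 14 CpG. MARCKSL1 held 7 matches to the GC box, the 3 farthest from the start overlapping in turn, and MARCKS held 1, whose first base lies 82 bases before the start. A GC box is present in 44.95% of all promoters. MARCKS held CCAAT boxes at 240 and 53 bases before its start and MARCKSL1 held 1 at 78 bases, and 34.6% of promoters have one. Overlapping TATATA runs stood 30 and 28 bases before the MARCKSL1 start, a run that 3.99% of promoters hold, and MARCKS had none. Neither window matched TATAAA, the AP-1 motif TGANTCA or the E-box CACCTG that ZEB and SNAI factors bind, which 11.5%, 7.71% and 20.6% of promoters hold. These are matches of letters and not measured binding sites.

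MARCKS was low in all 3 ALDH-high clones and in wild type, and high in all 3 ALDH-low clones. It had 13.03, 11 and 13.72 CPM in H1, H6 and H10, against 55.72, 73.89 and 58.96 CPM in L1, L3 and L8, and wild type had 8.87 CPM. The ALDH groups did not overlap, and a gap of 4.06-fold separated the highest ALDH-high clone from the lowest ALDH-low clone. Over all 9 pairings of an ALDH-high with an ALDH-low clone, the ALDH-low value was 4.06 to 6.72 times the ALDH-high value. Means were 12.6 ± 1.41 CPM in ALDH-high and 62.9 ± 9.69 CPM in ALDH-low clones (SD, n = 3 each), a ratio of 0.200. On the log2(CPM + 1) scale the difference, ALDH-high minus ALDH-low, was -2.23, beside SDs of 0.15 among ALDH-high and 0.21 among ALDH-low clones. In RNA from whole cultures, fewer cells with MARCKS and less MARCKS RNA per cell cannot be told apart. Clones of a group were close to each other, with the highest 1.25 times the lowest in ALDH-high and 1.33 times in ALDH-low. As context for these values, which served to choose the gene, the ALDH groups did not overlap in 26.1% of the 12705 genes tested, with ALDH-high below in 12.1%, and 64 of them had a larger difference in size.

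Wild type held the lowest MARCKS value of the 7 libraries. Its 8.87 CPM corresponds to about 222 reads, with a 95% counting interval (exact Poisson) of 7.74 to 10.1 CPM. That interval meets the one of H6, 9.72 to 12.4 CPM, and lies below those of H1 and H10, which start at 11.7 and 12.3 CPM. Intervals of this kind cover counting error only, and with 1 wild-type culture its spread is unknown. The mean of ALDH-high clones was 1.42 times the wild-type value and that of ALDH-low clones 7.09 times. Wild type therefore stood on the side of the ALDH-high clones, 0.46 log2 units below their mean and 2.68 log2 units below the ALDH-low mean. Wild type was below all 6 clones in 25.4% of tested genes. Outside the pair, limma, a linear model test across all genes, gave 87 genes that fell in ALDH-high clones and 82 that rose. Wild type was nearer to the ALDH-high mean in 62 of the former and 63 of the latter. These genes were called on the same contrast, and the share over all tested genes was not computed, so the counts lend no weight to MARCKS.

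MARCKSL1 showed no such division. It had 112.3, 136.59 and 145.32 CPM in H1, H6 and H10, against 162.16, 85.64 and 110.96 CPM in L1, L3 and L8, and wild type had 113.86 CPM. The groups overlapped throughout, with the highest and the lowest of the 7 values both in ALDH-low clones. Means were 131 ± 17.1 CPM in ALDH-high and 120 ± 38.98 CPM in ALDH-low clones (SD, n = 3 each), a ratio of 1.10. The difference of 0.18 log2 units was smaller than the SD within ALDH-low clones, 0.46, and about the size of that within ALDH-high clones, 0.19. It turned to -0.04 without L3, the lowest library. The ALDH-high value was the larger in 6 of 9 pairings. In order of level, L1 came first, then H10 and H6, whose counting intervals met. Wild type, H1 and L8 followed with intervals that met as well, and L3 came last. The 7 values spanned 1.89-fold, where those of MARCKS spanned 8.33-fold.

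**Figure D1:**
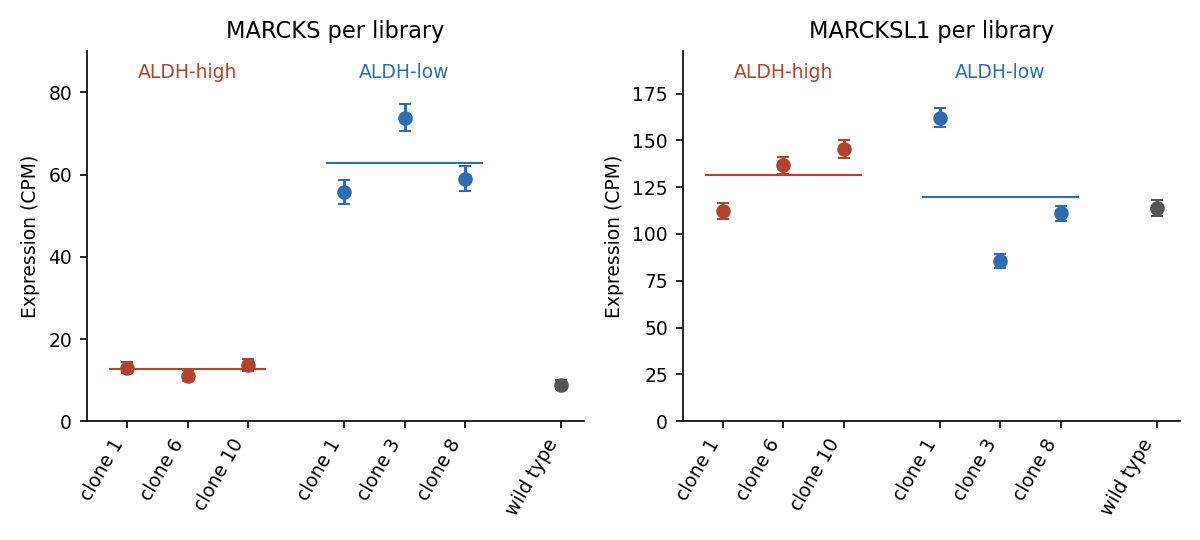
Expression of MARCKS (left) and MARCKSL1 (right) in CPM for each library, grouped as ALDH-high clones, ALDH-low clones and wild type. Points are single libraries, bars their 95% counting intervals and horizontal lines the group means; MARCKS lies between 8.87 and 13.72 CPM in ALDH-high clones and wild type and between 55.72 and 73.89 CPM in ALDH-low clones, while the MARCKSL1 groups overlap.

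Within a library, the balance between the 2 genes differed between the ALDH groups. There were 8.62, 12.4 and 10.6 MARCKSL1 reads for each MARCKS read in H1, H6 and H10, against 2.91, 1.16 and 1.88 in L1, L3 and L8, and 12.8 in wild type. The ratio was 10.5 ± 1.90 in ALDH-high clones and 1.98 ± 0.88 in ALDH-low clones (SD, n = 3 each). These ratios are of CPM without a correction for length, so they compare libraries and do not say which transcript was more abundant. Among ALDH-low clones the genes ran in opposite order, L3 having the most MARCKS and the least MARCKSL1 and L1 the reverse. Among ALDH-high clones, H10 had the most of both.

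The genes that act on or with MARCKS proteins were followed in 12 groups of 107 genes by textbook role, 96 of them in the table and 91 tested. limma on log2(CPM + 1) compared ALDH-high with ALDH-low clones, with p-values adjusted over all 12705 tested genes and a threshold of 0.05. The test passed 1 of the 91 genes, which fell (1.10%), beside 1.34% of all tested genes and 0.693% in that direction. At an unadjusted p under 0.05 there were 25 of 91 genes (27.5%), 8 higher and 17 lower, beside 19.7% of all tested genes. ALDH-high clones lay wholly below ALDH-low clones in 25 of the 91 (27.5%, against 12.1% of all tested genes) and wholly above in 7 (7.69%, against 14.0%). The median difference of the 91 was -0.19 log2 units, and that of all tested genes 0.00.

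The gene that fell was DGKI, which encodes a diacylglycerol kinase, an enzyme that removes the lipid activator of PKC. It had 0.32, 0.74 and 0.04 CPM in H1, H6 and H10, against 17.92, 4.2 and 27.76 CPM in L1, L3 and L8, and 1 CPM in wild type. All ALDH-high values lay below all ALDH-low values, which ranged widely among themselves. The change was -3.40 log2 units (SE 0.58, limma adjusted p = 0.0388). DGKI met the minimum for testing, 1 CPM in 3 clones, only through the ALDH-low clones, so it had to differ to be tested and this 1 call lends no weight to the list. With any single clone other than L3 left out, DGKI no longer passed (limma adjusted p between 0.0666 and 0.154). Of the other 5 diacylglycerol kinases tested, DGKH was at 13.1 against 25.05 CPM and DGKZ at 44.1 against 43.6 CPM in ALDH-high and ALDH-low clones (limma adjusted p = 0.335 and 0.839). The DGKH gap rested largely on H1, with 3.38 CPM against 17.98 and 17.84 CPM in H6 and H10, and its difference of -1.09 log2 units was -0.39 without H1.

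Among the enzymes that modify the effector domain, none of 6 PKC isoforms, 7 other kinases or 7 phosphatase subunits tested passed. At an unadjusted p under 0.05 limma gave 2, 1 and 2 of them (33.3%, 14.3% and 28.6%), beside 19.7% of all tested genes. PRKCI, an atypical PKC and the highest of the isoforms in CPM, was at 66.05 CPM on average in ALDH-high and 89.5 CPM in ALDH-low clones, and PRKCA, a conventional PKC, at 25.6 and 28.2 CPM (limma adjusted p = 0.282 and 0.776). The PRKCI difference of -0.46 log2 units was -0.24 without H1. PRKCZ, with the smallest p of the isoforms, was at 3.04 and 1.36 CPM. MAPK3, an ERK kinase, was at 21.4 CPM on average in ALDH-high and 39.97 CPM in ALDH-low clones, and MAPK8, a JNK that phosphorylates MARCKSL1, at 42.6 and 37.9 CPM (limma adjusted p = 0.232 and 0.646). The MAPK3 difference of -0.999 log2 units rested largely on H1, with 8.9 CPM against 27.33 and 27.92 CPM in H6 and H10, and was -0.49 without H1. Of the phosphatase catalytic subunit genes, PPP1CA, PPP2CA and PPP1CC had differences of 0.13, 0.06 and 0.35 log2 units, and PPP1CB and PPP2CB of -0.14 and -0.50. PPP1CC and PPP2CB were the 2 with an unadjusted p under 0.05, in opposite directions (limma adjusted p = 0.222 and 0.251). PPP2CB had 92.15, 146.23 and 166.92 CPM in H1, H6 and H10, against 188.4, 185.53 and 185.04 CPM in L1, L3 and L8. None of these 20 genes had a difference as large as that of MARCKS.

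The genes for the partners that bind or anchor the proteins also passed in no case. CALM2 and CALM3, which encode calmodulin, stood at 674 and 219 CPM in ALDH-high clones, against 722 and 321 CPM in ALDH-low clones, with limma adjusted p of 0.813 and 0.139. CALM3 had an unadjusted p under 0.05 and CALM2 did not. NMT1, the N-myristoyltransferase that attaches the lipid anchor, was at 56.9 CPM on average in ALDH-high and 63.7 CPM in ALDH-low clones, and METAP2, which trims the initiator methionine first, at 87.85 and 66.5 CPM (limma adjusted p = 0.617 and 0.185). Of 4 genes of this step 1 had an unadjusted p under 0.05. Among the exocytosis partners DNAJC5 was at 49.97 CPM on average in ALDH-high and 71.6 CPM in ALDH-low clones, and HSPA8, its chaperone partner, at 762 and 655 CPM (limma adjusted p = 0.183 and 0.61), with 1 of 4 genes at an unadjusted p under 0.05. The DNAJC5 difference of -0.53 log2 units was -0.34 without H1. Among all tested genes 19.7% had an unadjusted p under 0.05, the share to set beside the counts for these small groups.

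On the lipid side, 9 genes of PIP2 synthesis and 15 of its use were tested and none passed. At an unadjusted p under 0.05 limma gave 1 (11.1%) and 4 (26.7%), beside 19.7% of all tested genes. PIP5K1A, a main PIP2-making kinase, was at 72.4 CPM on average in ALDH-high and 73.2 CPM in ALDH-low clones, a difference of -0.02 log2 units (limma adjusted p = 0.954). PIP4K2A was at 31.5 and 50.6 CPM, and PIP4K2C at 30.8 and 20.1 CPM. PIP4K2A had 12.6 CPM in H1 against 43.46 and 38.4 CPM in H6 and H10, and its difference of -0.84 log2 units was -0.30 without H1. That of PIP4K2C, 0.57, was 0.38 without H1. PLCB3, a phospholipase C that splits PIP2, was at 13.2 CPM on average in ALDH-high and 28.8 CPM in ALDH-low clones (-1.17 log2 units, limma adjusted p = 0.112). It had 6.8 CPM in H1 against 18.88 and 13.92 CPM in H6 and H10, and its difference was -0.79 log2 units without H1. PIK3CB, a phosphoinositide 3-kinase subunit, and INPPL1, a phosphatase of its product, differed by -0.08 and -0.12 log2 units.

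The differences nearest in size to that of MARCKS were those of a fellow PKC substrate, AKAP12, and of the proteases CTSB and CAPN1. AKAP12, a myristoylated scaffold that PKC phosphorylates, had 24, 11.86 and 10.64 CPM in H1, H6 and H10, against 46.52, 160.78 and 45.88 CPM in L1, L3 and L8, and 40.53 CPM in wild type. The groups did not overlap, L3 was far above the rest, and the difference of -2.197 log2 units (SE 0.503) did not pass (limma adjusted p = 0.0801). BASP1, a functional relative that also masks PIP2, was at 48.9 CPM on average in ALDH-high and 60.6 CPM in ALDH-low clones, and ADD1, an adducin that caps actin filaments, at 49.5 and 56.3 CPM (limma adjusted p = 0.682 and 0.645). In this group 3 of 6 tested genes had an unadjusted p under 0.05, beside 19.7% of all tested genes, and 2 of the 3 were higher. CTSB, which encodes cathepsin B, a protease that cuts MARCKS, was at 261 ± 125 CPM in ALDH-high and 691 ± 376 CPM in ALDH-low clones (limma adjusted p = 0.161). Its difference of -1.42 log2 units was -0.93 without H1, the lowest library. The calpain genes CAPN1 and CAPN2 were at 20.06 and 219 CPM in ALDH-high clones, against 51.6 and 283 CPM in ALDH-low clones (limma adjusted p = 0.0707 and 0.48). Their differences were -1.36 and -0.39 log2 units, and that of CAPN2 ranged from -0.65 to -0.17 with a clone left out, being nearest to 0 without H1 or L3. All 4 protease genes had negative differences, none passed, and 2 had an unadjusted p under 0.05, beside 19.7% of all tested genes. Whether counts in groups this small exceed that share was not tested.

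Of 20 genes for actin and its membrane linkers none passed. At an unadjusted p under 0.05 limma gave 6 (30.0%, beside 19.7% of all tested genes), all lower in ALDH-high clones. The median difference of the 20 was -0.33 log2 units. ALDH-high lay wholly below ALDH-low in 7 of the 20 (35.0%, against 12.1% of all tested genes) and wholly above in 0 (against 14.0%). FLNA, the actin cross-linker filamin A, had 246.41, 374.1 and 278.08 CPM in H1, H6 and H10, against 539.24, 572 and 499 CPM in L1, L3 and L8, and 359.89 CPM in wild type. Its groups did not overlap, and the difference of -0.86 log2 units (SE 0.18) had a limma adjusted p of 0.0654. ACTB, the beta-actin gene, was at 2754 CPM on average in ALDH-high and 3618 CPM in ALDH-low clones, and CFL1, the filament-severing cofilin gene, at 1992 and 2664 CPM (limma adjusted p = 0.276 and 0.198).

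**Figure D2:**
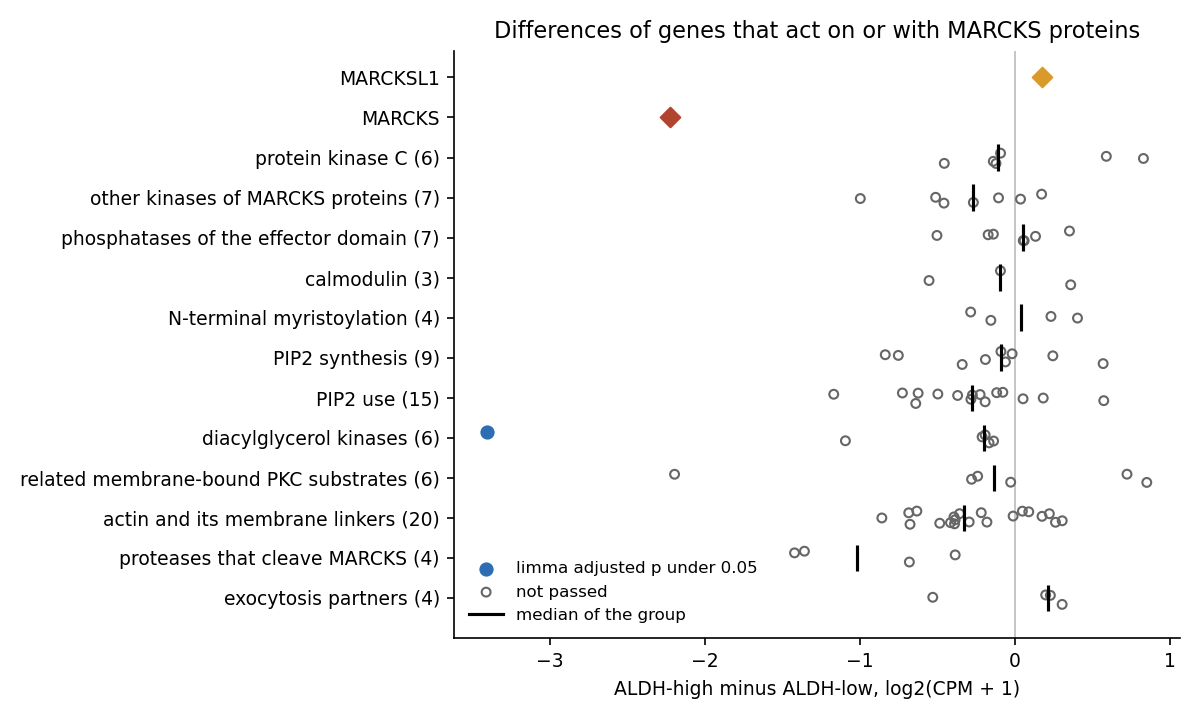
Difference between ALDH-high and ALDH-low clones in log2(CPM + 1) for MARCKSL1 and MARCKS (diamonds) and for each tested gene of the 12 functional groups, with the number tested in brackets. The filled circle is DGKI, which passed limma's test, open circles did not pass, and bars are group medians; MARCKS lies at -2.23 and all genes other than DGKI and AKAP12 lie above -1.5.

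In 1 respect the places of the 2 genes in the genome are alike, since each has a class I histone deacetylase gene as a listed neighbour. HDAC2 is the next listed gene after MARCKS and HDAC1 the one before MARCKSL1. HDAC2 had 260.88, 280.52 and 248.28 CPM in H1, H6 and H10, against 169.76, 230.31 and 212.88 CPM in L1, L3 and L8 (0.37 log2 units, limma adjusted p = 0.235), and 225.57 CPM in wild type. HDAC2, like MARCKS, had groups that did not overlap, but with ALDH-high above ALDH-low. HDAC1 was at 56.1 ± 2.17 CPM in ALDH-high and 52.4 ± 14.1 CPM in ALDH-low clones (limma adjusted p = 0.759). Like MARCKSL1, HDAC1 had its highest value of the ALDH clones in L1 and its lowest in L3.

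None of the 5 listed genes on each side of MARCKS or MARCKSL1 passed the test. HDAC2 lay 69.6 kilobases (kb) from MARCKS and the others around it 1754.6 to 2395.0 kb away. Those around MARCKSL1 lay 0.2 to 314.8 kb from it, so the 2 sets are not alike in distance. Around MARCKS 9 of 10 were tested, 5 with negative differences, with a median of -0.03 log2 units. DSE, which encodes dermatan sulfate epimerase and is the fourth listed gene after MARCKS, had 7.79, 14.36 and 13.56 CPM in H1, H6 and H10, against 33.24, 33.19 and 25.84 CPM in L1, L3 and L8. Its groups did not overlap, the difference was -1.33 log2 units (SE 0.25, limma adjusted p = 0.0501), and wild type at 38.49 CPM was above all clones, unlike MARCKS. FAM229B, the nearest listed gene before MARCKS, averaged 15.4 ± 7.65 CPM in ALDH-high and 5.31 ± 0.509 CPM in ALDH-low clones (1.26 log2 units, limma adjusted p = 0.112). WISP3, too low to be tested, had 0 to 0.12 CPM in ALDH-high clones and 0.8 to 3.3 CPM in ALDH-low clones. The remaining 6 around MARCKS, TRAF3IP2, FYN, TUBE1, NT5DC1, TSPYL4 and RP3-486I3.4, had differences between -0.43 and 0.50 log2 units. Around MARCKSL1 all 10 were tested, and the differences of CCDC28B, IQCC, TMEM234, EIF3I, HDAC1, TSSK3, BSDC1, ZBTB8A, ZBTB8OS and RBBP4 lay between -0.06 and 0.51 log2 units with a median of 0.15. All of these except IQCC and TSSK3 had their lowest value of the 7 libraries in L3, as MARCKSL1 did. The share of all tested genes that were lowest in L3 was not computed, so this is not shown to be particular to these genes.

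**Figure D3:**
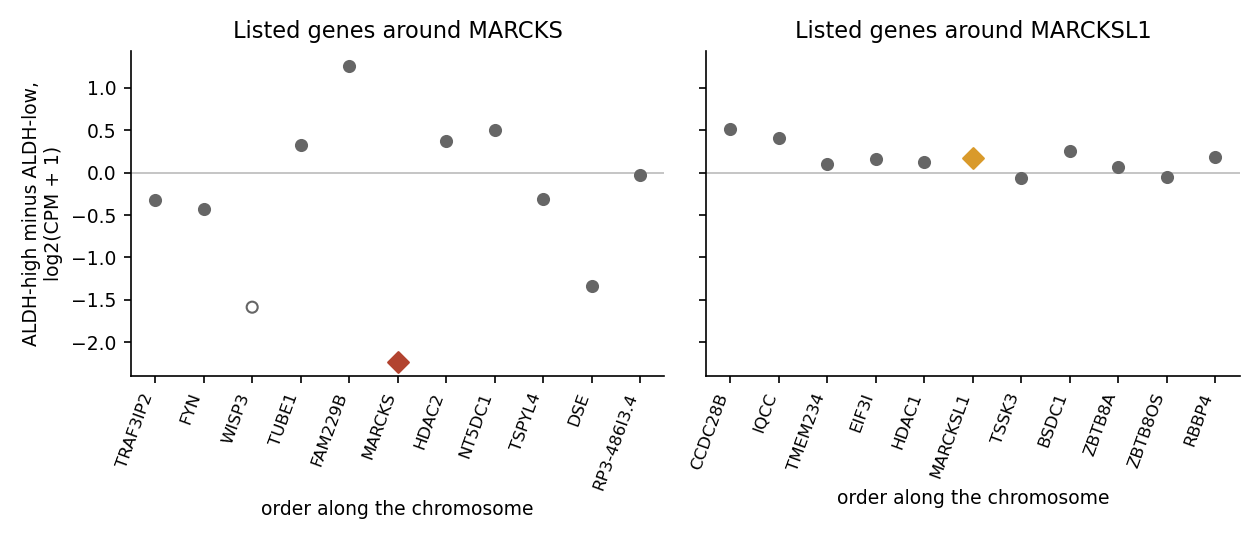
Difference between ALDH-high and ALDH-low clones in log2(CPM + 1) for the 5 listed genes on each side of MARCKS (left) and MARCKSL1 (right) in chromosome order, with the member as a diamond and an open circle for WISP3, which was too low to test. Genes around MARCKS spread from -1.59 to 1.26, and those around MARCKSL1 stay between -0.06 and 0.51.

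Genes with profiles most like that of MARCKS were ranked by the root mean square difference between log2(CPM + 1) values, each centred on its mean over the 7 libraries. The ranking covered 12228 genes and depends on the size of the differences as well as on their shape. It is dominated by the split between ALDH-low clones and the other libraries. The closest was AFP, the gene of the fetal plasma protein alpha-fetoprotein, at 0.16 log2 units, where the median of all genes was 1.203. AFP had 0.32, 0.37 and 0.32 CPM in H1, H6 and H10, against 5.48, 6.13 and 4.36 CPM in L1, L3 and L8, and 0.16 CPM in wild type. Like MARCKS, it was highest in L3 and lowest in wild type. With 1 read worth 0.0393 to 0.0410 CPM, its values in wild type and ALDH-high clones rest on few reads. The order of AFP values within these libraries and within the ALDH-low clones was not tested. Its ratio of ALDH-high to ALDH-low means, 0.0632 in CPM, was further from 1 than that of MARCKS, 0.200, and the added 1 CPM shrinks the log2 differences of genes as low as AFP. SLC35D2, a nucleotide-sugar transporter gene, NTF6G, CTB-60B18.17, RP11-383H13.1 and PAPPA, a secreted metalloprotease gene, followed at 0.37 to 0.44 log2 units. These 6 genes averaged 0.0267 to 0.377 CPM in ALDH-high clones and 2.58 to 5.77 CPM in ALDH-low clones, lower than MARCKS in CPM, which are not corrected for length. They met the minimum for testing, 1 CPM in 3 clones, only through the ALDH-low clones, so they had to differ to be ranked. The mirrored pattern was closest in ZNF717, CTD-2269F5.1 and ZNF716 (0.21, 0.23 and 0.25 log2 units from the mirror image), of which ZNF717 and ZNF716 encode zinc finger proteins. They had 3.44 to 6.2 CPM in ALDH-high clones, 0 to 0.32 CPM in ALDH-low clones and 4 to 9.07 CPM in wild type. These genes met the same minimum only through the ALDH-high clones.

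**Figure D4:**
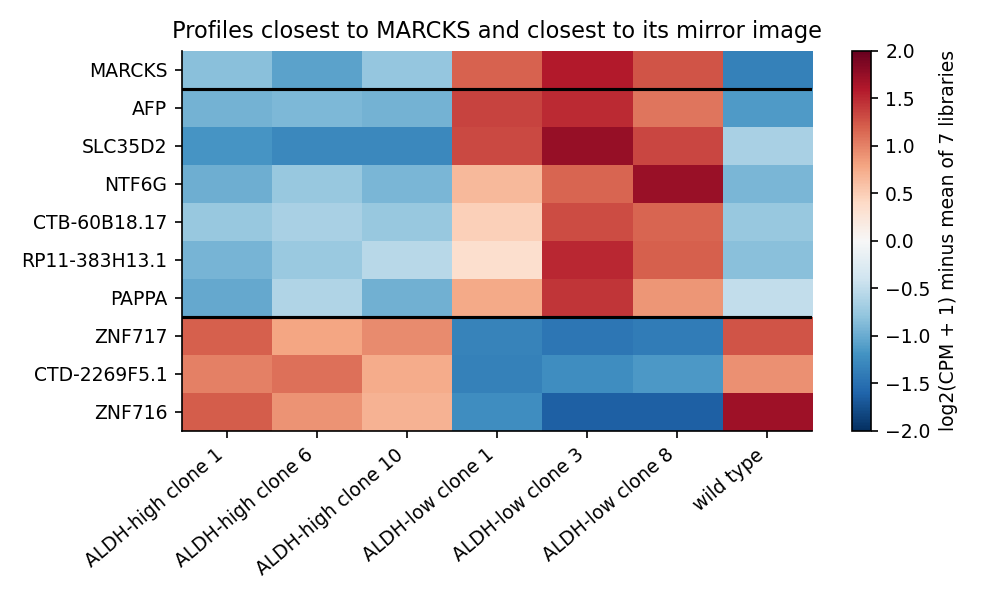
Colour gives log2(CPM + 1) minus the mean of the 7 libraries for MARCKS (top row), the 6 genes with the most similar profiles and the 3 nearest to its mirror image, with libraries in columns. MARCKS and the 6 genes are above their means in the 3 ALDH-low clones and below them in ALDH-high clones and wild type.

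For MARCKSL1 the closest profiles were those of RCOR1, a corepressor gene, RAVER2, SERPINB8, MAP1S, a microtubule-associated protein gene, ELOVL1, a fatty acid elongase gene, and the pseudogene TATDN1P1, at 0.10 to 0.12 log2 units, where the median of all genes was 0.43. ELOVL1 had 80.87, 109.95 and 92.12 CPM in H1, H6 and H10, against 109.68, 68.59 and 80.08 CPM in L1, L3 and L8, and 76.81 CPM in wild type. Each of the 6 was lowest in L3, as MARCKSL1 was, which a ranking by likeness to MARCKSL1 favours. The mirrored pattern was closest in RP11-324I22.4, SCAPER and CRMP1, a neuronal cytoskeleton gene, at 0.05 to 0.09 log2 units from the mirror image, and each was highest in L3. The MARCKS and MARCKSL1 profiles themselves lay 1.28 log2 units apart, more than the 1.18 log2 units by which MARCKS departs from a flat line. Since MARCKSL1 varied by only 0.28 log2 units around its own mean, many genes with small variation lie near it.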

How the data were processed

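RNA from 7 UM-UC-3 cultures (3 ALDH-high clones, 3 ALDH-low clones, 1 wild type) was analysed from the deposited table of CPM, read counts scaled to library size and rounded to 2 decimals by the authors. The submitters' processing notes name BWA 0.5.9, hg19 and mm9 without their roles, and the library type and counting method are not given in the sources used here. Per the file headers, columns carry the name CAGEr, a package for 5′-end tags. Columns sum to between 967085 and 1019860 CPM. The CPM of 1 read was estimated per column as the step that divides its values. In each column 99.66 to 100.0% of values were whole multiples within 0.0051 CPM, but at a tolerance of 0.1 read 78.7 to 99.8% were, so no count model was run and read numbers are estimates. Rounding to 2 decimals can move a value by more than 0.1 read, so the stricter tolerance cannot tell rounding from reads that are not whole.

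The 12705 genes that reached 1 CPM in 3 or more of the 6 clones were compared by limma (version 3.58.1, R 4.3.3, eBayes with trend, two-sided) on log2(CPM + 1), adjusted by Benjamini-Hochberg over all of them. Fold changes on this scale understate those of low genes. P-values measure the spread between clones of 1 line, and 3 against 3 clones cannot reach less than 0.1 in an exact permutation test. On simulated data with this design, limma recovered 40% of 2-fold and 89% of 4-fold changes among 12705 genes. Members and gene lists were chosen with earlier results of these data known. The genes named are the members, the listed genes that passed, per list the 2 highest and the 1 with the smallest p, 5 neighbours on each side, the 6 most alike and 3 most mirrored profiles, GRIK2 and ALDH1A1, besides which values of a few further genes are given. Some genes that this rule names are not reported here. Gene order came from GENCODE release 29 (GRCh38) by identifier for 96.6% of genes and by identifier or symbol for 98.4%. MARCKS was placed by symbol, and only chromosome names, order and distances were used.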

Additional observations from a re-analysis of the deposited data

How the results depend on the processing

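The MARCKS difference of -2.23 log2 units was -2.31 to -2.11 with a clone left out. It was -1.94 with a pseudocount of 5, which shrinks log2 differences by construction. The gene was chosen on values whose ALDH groups did not overlap, so neither change could turn the sign. The MARCKSL1 difference of 0.18 log2 units ranged from -0.038 to 0.42 with a clone left out. The count of 170 genes called over the whole table was 86 with a filter at 5 CPM and 34 to 173 with a clone left out, and the 1 pathway gene called, DGKI, was lost with a pseudocount of 5 (limma adjusted p = 0.0729) and with a filter at 5 CPM, which leaves it untested, and was called or not (0 to 1 genes) with a clone left out. PIP5K1A, at -0.02 log2 units, was at 0.0010 under quantile normalization. The signs of small, uncalled differences also turned with a clone left out, with ranges of -0.084 to 0.061 for PIP5K1A, -0.24 to 0.051 for PRKCA, -0.21 to 0.039 for CALM2, -0.20 to 0.10 for PIK3CB, -0.35 to 0.17 for INPPL1, -0.56 to 0.44 for DGKZ and -0.46 to 0.055 log2 units for ADD1. No paired analysis was possible because the ALDH groups share only 1 clone number, which names clones and pairs none. The planned count models were not run, since whole reads were not recovered at the stricter tolerance in all columns. Rounding to 2 decimals can move a value by more than that tolerance, so it cannot show that reads were not whole. Since 40% of 2-fold changes simulated in higher genes were recovered, a gene that missed the threshold is not shown to be unchanged. Recovery in lower genes was not simulated.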
